A study of Homo sapiens with 4 samples.

Results

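The USP17L genes are a family of near-identical deubiquitinase genes that lie in repeat arrays on chromosomes 4 and 8. Members were taken by name, as every gene whose symbol begins with USP17L followed by a digit, which gave 30 of the 58174 genes in the files. Of these, 26 were annotated as protein coding and 4 as pseudogenes, and 43 of 199324 transcripts belonged to them. The family was chosen because it differed between the genotypes in these same libraries, so its counts are given as a description, with no test.

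RNA was sequenced from Daoy, an established human medulloblastoma cell line, either wild type or labelled as a knockout of EED, with 2 libraries of total RNA for each genotype. EED belongs to the core of Polycomb repressive complex 2, the enzyme complex that methylates histone H3 at silenced genes. The labels give no treatment and no time point, and do not say how the gene was disrupted, whether the knockout is 1 clone, or whether the 2 libraries of each genotype are separate cultures. The spread between libraries may therefore be technical only, and with bulk RNA fewer expressing cells and less RNA per cell cannot be told apart.

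USP17 enzymes, also called DUB3 for the USP17L2 copy, are cysteine proteases that remove ubiquitin from other proteins. Their genes have a coding region without introns in its basic form, and the chromosome 4 copies form a tandem array whose copy number varies between people. The enzymes were described as immediate early genes induced by cytokines, and reported substrates include the cell cycle phosphatase CDC25A and the protease RCE1. Members of the family are also known as genes switched on by the cleavage-stage factor DUX4.

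The chromosome 4 array held 24 of the members between 9210657 and 9369070 (GRCh38, GENCODE 29), all on the plus strand. Starts of neighbouring copies lay a median of 4746 bases apart, and 22 of the 23 steps were within 50 bases of that value. The remaining step followed USP17L23, where 52250 bases separated it from USP17L24. The other 6 members, USP17L1, USP17L4, USP17L8, USP17L3, USP17L7 and USP17L2, lay on chromosome 8 between 7332387 and 12139077.

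How alike the copies are limits what any single count means, so sequence is shown before the values. In 25 members 1 transcript was 1593 bases long, and 21 of these were on chromosome 4. Pairs of chromosome 4 copies were 97.55% to 100% identical over those bases, with a median of 99.44%, and 21 of the 210 pairs had no difference at all. Pairs across the 2 chromosomes were 95.79% to 96.67% identical. All 21 chromosome 4 copies had the same base at 1529 of the 1593 positions. The longest stretch that they all share, bases 558 to 721 of the transcript, runs for 164 bases, and a read inside it fits every one of them.

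USP17L11, which took the most counts, differed from USP17L18 and USP17L20 at 2 of 1593 bases, from USP17L22 at 4 and from USP17L24 at 6. The place where it shares its base with the fewest other copies is base 928, and there, of the 21 chromosome 4 copies, only USP17L18 and USP17L19 match it. The 31 bases around that position, bases 913 to 943 of the transcript, are printed to show how little sets the most counted copy apart. Capitals mark the 2 bases that vary among the copies below and USP17L22, whose window is also found outside the array and is not printed. Among the printed copies only the first capital varies (GRCh38, plus strand, from the GENCODE 29 transcripts).
USP17L11, chr4:9216317-9216347: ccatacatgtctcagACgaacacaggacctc
USP17L18, chr4:9249542-9249572: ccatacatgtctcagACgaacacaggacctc
USP17L19, chr4:9254290-9254320: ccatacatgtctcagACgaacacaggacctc
USP17L20, chr4:9259036-9259066: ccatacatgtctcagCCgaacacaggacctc
USP17L24, chr4:9326077-9326107: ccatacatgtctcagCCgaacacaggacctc

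The copies that took counts can be compared at bases 1459 to 1489, where USP17L11, USP17L22 and USP17L24 all differ from each other. The bases in capitals are those at which the 3 copies differ (GRCh38, plus strand).
USP17L11, chr4:9216863-9216893: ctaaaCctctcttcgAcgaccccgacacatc
USP17L22, chr4:9269077-9269107: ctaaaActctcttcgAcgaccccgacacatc
USP17L24, chr4:9326623-9326653: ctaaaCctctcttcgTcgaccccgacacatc
In this window USP17L22 and USP17L24 each differ from USP17L11 at 1 base, so only reads that cover that base separate them here.

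Over the whole family the 30 members had 6948 distinct words of 31 bases, and 13 members, all on chromosome 4, had no word that was absent from every other gene. USP17L11 was one of them, with 0 of 1649 words of its own. USP17L22, USP17L24, USP17L25 and USP17L26 had none either. The 7 genes USP17L24 to USP17L30 had the same 1593-base transcript, and USP17L24, USP17L25 and USP17L26 also had the same 1677-base transcript. USP17L2 was easier to tell apart, with 397 of its 1880 words (21.1%) found in no other gene. Counts of single chromosome 4 copies are therefore uncertain, and the sum over the family is the firmer quantity.

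**Figure D1:**
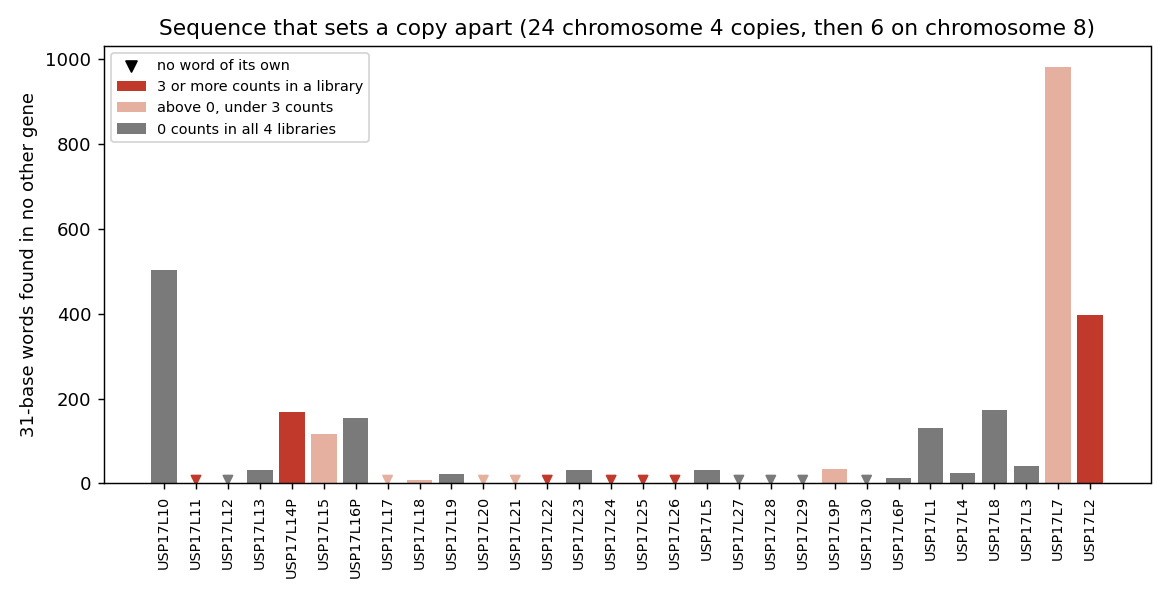
Number of 31-base words found in no other gene (vertical axis) for each member, the 24 chromosome 4 copies in genome order and then the 6 on chromosome 8; colours give the counts the member received, and triangles mark members with 0 such words. Of the 13 members with none, 5 received 3 or more counts, while USP17L2 had 397 and USP17L7 had 981.

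Total estimated counts were 19106382 and 17836112 in the wild type and 19022736 and 18164045 in the knockout libraries. At that depth 3 counts correspond to 0.157 to 0.1682 CPM (a gene's counts scaled to a common library total), taken here as the floor below which a level was not read. EED itself, the targeted gene, stood at 32.8 and 28.0 CPM in the wild type and at 17.9 and 27.0 CPM in the knockout libraries. Its RNA was thus still present in the libraries labelled as knockout, with a log2 fold change of -0.49 ± 0.27 (SE) and an adjusted p of 0.878 by edgeR's quasi-likelihood test. Whether those reads come from outside the altered part of the gene was not tested. All 6 genes fixed as markers of the line (VIM, NES, CD44, PTCH1, GLI2, ZIC1) were detected in every library. The 16 markers of blood, epithelial, endothelial, neuronal and germ cells summed to 11.2 and 19.3 CPM in the wild type and to 18.3 and 13.4 CPM in the knockout libraries. Between 3 and 6 of the 16 had no counts in a library, CD3E and KRT20 had none in any, and germ cell DAZL and DDX4 had at most 2 counts. Others were detected in every library. Neuronal SYT1 had 126 and 151 counts in the wild type and 128 and 103 in the knockout libraries. In the germ cell and early embryo group POU5F1 had 35, 43, 41 and 20 counts and SYCP3 3, 12, 5 and 9, in the same order. Endothelial CDH5 reached 42 counts in knockout 1 and epithelial KRT5 46 in knockout 2.

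The family was close to silent in wild type cells and was counted in both knockout libraries. Its summed counts were 1 in wild type 1, 6 in wild type 2, 114 in knockout 1 and 171 in knockout 2. The exact 95% Poisson intervals were 0.0253 to 5.57, 2.20 to 13.1, 94.0 to 136.9 and 146 to 198.6 counts, which cover counting error only. In each library the sum lay within 0.01 of a whole number although single members had fractions, since kallisto divides each read among the copies that it fits. Scaled to depth, the family stood at 0.0523 and 0.336 CPM in the wild type and at 5.99 and 9.41 CPM in the knockout libraries. The genotypes did not overlap, from which nothing is read, since the family was chosen on this contrast.

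The wild type mean was 0.194 ± 0.201 CPM (SD, n = 2), and the knockout mean was 7.70 ± 2.42 CPM (SD, n = 2), a ratio of 39.6. Pooled within genotype, 7 counts stood against 285, with a 95% counting interval of the ratio from 19.4 to 102. The ratio is set by very few wild type counts: leaving out wild type 1 gave 22.9, and leaving out wild type 2 gave 147. The 26 protein-coding members alone gave a ratio of 112, since they had 0.231 and 2.24 of the wild type counts and all of the knockout counts. Summed as TPM, which also divides by transcript length, the family stood at 0.0512, 0.322, 5.90 and 9.13 in the same order, a ratio of 40.2.

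**Figure D2:**
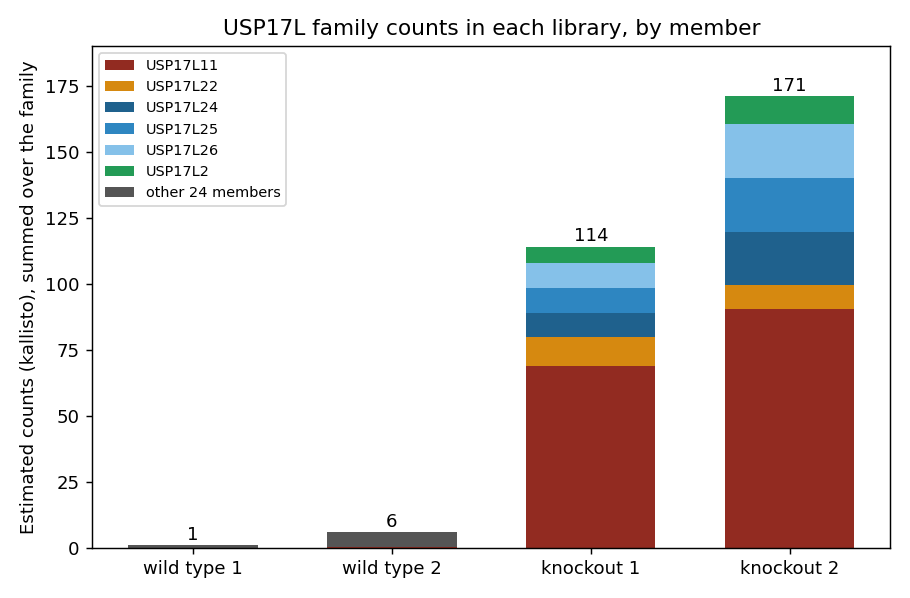
Estimated counts summed over the 30 members (vertical axis) in each of the 4 libraries, stacked by member, with the total above each bar. The wild type bars stand at 1 and 6 counts and the knockout bars at 114 and 171, and USP17L11 is the tallest block in both knockout libraries.

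Few of the copies received these counts. Of the 30 members, 16 had exactly 0 counts in all 4 libraries, 12 of them on chromosome 4 and 4 on chromosome 8. A further 7 were above 0 but under 3 counts in every library, and 7 reached 3 counts in at least 1 library. In each knockout library the same count of members, 6, was above 0, and all 6 reached 3 counts. Wild type 1 had 4 members above 0 and wild type 2 had 11, of which 0 and 1 reached 3 counts. The member just inside that limit was USP17L14P at 3.76 counts, and the one just outside it was USP17L7 at 1.00.

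Among all 58174 genes, both knockout libraries were above both wild type libraries in 9.81% and below them in 8.27%. In the family 6 members were above and 2 below, and since the family was chosen on this contrast nothing is read from those counts. The 6 were USP17L11, USP17L22, USP17L24, USP17L25 and USP17L26 on chromosome 4 and USP17L2 on chromosome 8. The 2 below, USP17L15 and USP17L17, never exceeded 0.301 counts, which is no measurable level. The other 22 overlapped, most of them because they had no counts.

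USP17L11 (ENSG00000233136.2, chr4:9215405-9217356, plus strand) carried the largest number of counts. It had 0.00835 and 0.0666 counts in the wild type and 69.0 and 90.6 in the knockout libraries, or 3.63 and 4.99 CPM in the latter. Against 3 counts per library its mean knockout level was at least 26.5-fold higher. It held 60.5% of the family's counts in knockout 1 (exact 95% binomial interval 50.9% to 69.6%) and 53.0% in knockout 2 (45.4% to 60.9%). These intervals overlap, and they leave out the error of dividing reads among near-identical copies. Without USP17L11 the family still stood at 0.992 and 5.93 counts in the wild type and at 45.0 and 80.4 in the knockout libraries, a ratio of 17.7. Of all 58174 genes, USP17L11 was the 1 gene with under 1 count in both wild type libraries and at least 50 in both knockout libraries, limits that were chosen after its values were seen. In the opposite direction 1 gene met the same limits, CTD-2369P2.12, with 92.9 and 158 counts in the wild type and 0 in both knockout libraries.

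USP17L24, USP17L25 and USP17L26, at the start of the second block of the array, had equal values because their transcripts are the same. Each had 0 and 0.0438 counts in the wild type and 9.32 and 20.4 in the knockout libraries. Their sum of 27.95 and 61.1 counts made up 24.5% and 35.7% of the family in the knockout libraries. The intervals were 17% to 33.5% and 28.5% to 43.3%, and they too leave out the error of dividing reads among copies. Against 3 counts per library the sum was at least 14.9-fold higher. USP17L22, near the end of the first block, was at 0 in wild type cells and had 10.7 and 8.77 counts in the 2 knockout libraries, at least 3.22-fold more than 3 counts per library. The 4 genes USP17L27 to USP17L30, which have the same 1593-base transcript as USP17L24 but no 1677-base one in the annotation, were at 0 in all 4 libraries.

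**Figure D3:**
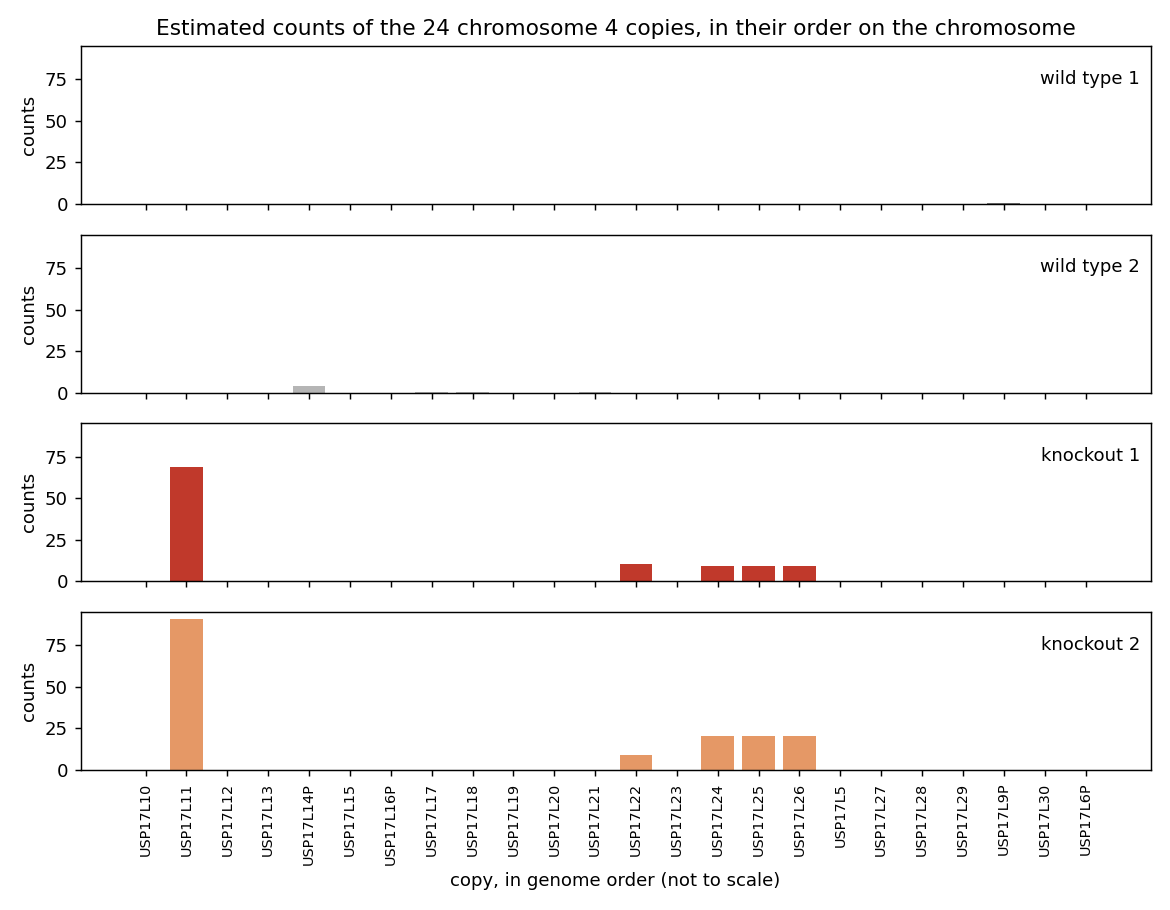
Estimated counts (vertical axis, counts) of the 24 chromosome 4 copies in genome order (horizontal axis, not to scale), with 1 panel for each library and 1 vertical scale throughout. In both knockout libraries the same 5 copies rise above 0, led by USP17L11 at 69.0 and 90.6 counts, while the tallest wild type bar is USP17L14P at 3.76 counts.

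USP17L2 (chromosome 8, 12137168 to 12139077), the copy studied as DUB3, was at 0 in wild type cells too and had 6.35 counts in knockout 1 and 10.6 in knockout 2. That was 0.334 and 0.584 CPM, at least 2.82-fold above 3 counts per library, and 5.57% and 6.20% of the family's counts. Compared per length, USP17L2 stood at 0.280 and 0.474 TPM in the knockout libraries and USP17L11 at 3.63 and 5.02 TPM. The chromosome 4 members together had 1, 5, 107.6 and 160.4 counts in the 4 libraries, and the chromosome 8 members 0, 1, 6.35 and 10.6. The ratio of mean levels was 43.6 for chromosome 4 and 16.4 for chromosome 8, the latter against 1 wild type count from USP17L7. Its counting interval, 2.65 to 706, covers that of chromosome 4, so a difference between the chromosomes was not detectable at this depth.

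The wild type counts fell on other copies. In wild type 2 the pseudogene USP17L14P had 3.76 of the 6 counts and USP17L7 had 1.00, and both had 0 in the other 3 libraries. The pseudogene USP17L9P had 0.769 of the 1 count in wild type 1. The 5 pseudogenes with clone names that lie outside the family but share 290 to 876 words with it had at most 1 count in any library. Adding them, an alternative chosen after the data were seen, gave a ratio of 34.8.

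The 2 knockout libraries differed in which transcript took the counts. In 13 members the annotation has a shorter and a longer transcript, of 1593 and 1677 bases in USP17L11, and the longer ones hold 169 words that no shorter one has. USP17L11 had 23.8 counts on the shorter and 45.2 on the longer transcript in knockout 1, against 90.6 and 0 in knockout 2. USP17L22 and the 3 equal copies were counted on the longer transcript alone in both knockout libraries. Over these 13 members the longer transcripts held 77.9% of the counts in knockout 1 (interval 68.8% to 85.2%) and 43.5% in knockout 2 (35.9% to 51.8%). The intervals do not overlap, but they leave out the error of dividing reads between transcripts that differ by few words. The longer USP17L11 transcript has 86 words absent from the shorter one, and the shorter has 2 absent from the longer.

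Most copies were too low for a test across genes. Of the 30 members only USP17L11 passed the filter on low counts, and it passed through the knockout libraries, where it was counted. Across the 18349 genes tested, edgeR's quasi-likelihood test called 0% higher and 0% lower in knockout cells at an adjusted p under 0.05. The smallest adjusted p was 0.423, and 523 genes higher and 559 lower had an unadjusted p under 0.05. DESeq2 called 0.142% higher (26 genes) and 0.229% lower (42 genes). Of the family's 1 tested member edgeR called 0 and DESeq2 called 1, which is no independent evidence. With the family summed as 1 gene edgeR also called 0. On log2(TPM + 1) and on log2(TPM + 0.1), limma called 0 of the 1 tested member.

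Other gene families in tandem repeats were summed in the same way to see how far the family's pattern is shared. Of 16 such families 1 was higher in both knockout libraries than in both wild type libraries, 2 were lower and 13 overlapped. Among all single genes in the files 9.81% were higher and 8.27% lower in that sense, so nothing is read from these counts. The 1 higher family, the zinc finger genes ZNF705, had 7 and 5 counts in the wild type and 10 and 16.4 in the knockout libraries. Its ratio was 2.21, against 39.6 for USP17L, which was chosen on this contrast. The defensin genes DEFB, summed over the genome, had 1, 5, 2 and 2 counts. The FAM90A genes, summed likewise, stood at 1.78 and 2.58 CPM in the wild type and at 2.63 and 1.16 CPM in the knockout libraries. The GAGE cancer-testis genes were lower, at 109 and 121 against 52.5 and 67.1 CPM.

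**Figure D4:**
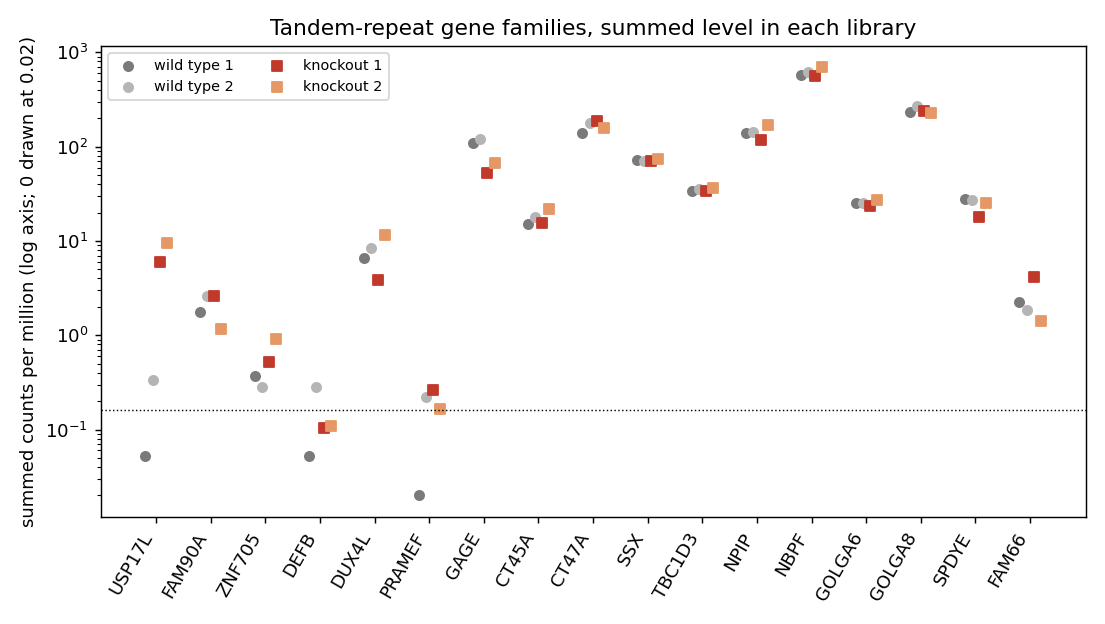
Summed level of USP17L and 16 other tandem-repeat gene families (vertical axis, CPM, log scale, 0 drawn at 0.02) in each library; circles are wild type, squares are knockout, and the dotted line is 3 counts, averaged over the libraries. USP17L, chosen on this contrast, moves from 0.0523 and 0.336 to 5.99 and 9.41, while 13 of the 16 other families overlap between genotypes.

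DUX4 and other genes of the cleavage-stage embryo are known to be active together with USP17L genes in other settings, so they were read beside the family. DUX4 had 7.42 and 2 counts in the wild type and 1 and 2 in the knockout libraries, and its target ZSCAN4 had 4, 0, 4 and 1. Of the 31 genes on that list 3 passed the filter and edgeR called 0 of them. SLC34A2, a phosphate transporter, had 2 and 4 counts in the wild type and 18 and 14 in the knockout libraries, a log2 fold change of 2.31. SLC34A2 also lies on chromosome 4, 16.3 Mb from the USP17L array, and so is among the genes read by distance below. RFPL4A overlapped between genotypes with a log2 fold change of -0.62. The DUX4L repeat copies, which resemble DUX4, stood at 6.52, 8.34, 3.89 and 11.6 CPM.

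The reported substrates of USP17 and DUB3 did not form a common pattern at the RNA level. Of 17 listed genes 16 were tested, edgeR called 0, and the median log2 fold change was 0.04 against 0.007 over all genes. Among tested genes 20.4% had both knockout libraries above both wild type libraries and 15.7% below (17.9% and 18% with TMM-scaled library sizes). In the substrate list these were 5 and 3 genes (3 and 2 with TMM). CDC25A stood at 47.6 and 40.4 CPM in the wild type and at 39.3 and 47.1 CPM in the knockout libraries, and RCE1 at 12.7 and 16.4 against 16.7 and 18.3 CPM. The RNA sensors DDX58 and IFIH1 had the largest differences, with log2 fold changes of -0.91 and -0.82. HDAC2, ELK1, SNAI1 and MCL1 overlapped between genotypes, with log2 fold changes of -0.37, -0.15, 0.27 and -0.28.

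Of 13 genes in the files for signals reported to induce USP17, 10 were tested and edgeR called 0, with a median log2 fold change of -0.04. The chemokine CXCL8 had 180 and 164 CPM in the wild type and 474 and 46.1 CPM in the knockout libraries, and IL6 had 66.5 and 120 against 191 and 82.1 CPM. Both overlapped between genotypes. CXCL12, another chemokine, had the highest log2 fold change of the list, 1.40, and was uneven within genotypes at 0.733 and 6.78 against 19.7 and 0 CPM. In 1 of the 10 tested genes both knockout libraries were above both wild type libraries and in 3 below, also with TMM-scaled library sizes. The shares over all tested genes were 20.4% and 15.7% (17.9% and 18% with TMM). The 1 above was the interleukin 6 receptor gene IL6R, at 6.81 and 8.18 CPM in the wild type and 8.70 and 15 CPM in the knockout libraries (log2 fold change 0.61). The interleukin 4 receptor gene IL4R, 1 of the 3 below, stood at 27.8 and 32.6 against 27.4 and 25.3 CPM.

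As a scale for the family's level, the widely expressed deubiquitinase gene USP7 stood at 47.3 and 50.6 TPM in the wild type and at 54.8 and 50.5 TPM in the knockout libraries, against 5.90 and 9.13 TPM for the summed USP17L genes in knockout cells. Of 54 other genes of the USP class 50 were tested and edgeR called 0, with a median log2 fold change of 0.06. Both knockout libraries were above both wild type libraries in 18 and below in 5 of these genes, a split that was 10 and 8 with TMM-scaled library sizes. Over all tested genes the shares were 20.4% above and 15.7% below, or 17.9% and 18% with TMM. USP44 had the highest log2 fold change, 1.22, through knockout 1 alone (0.890, 2.07, 5.57 and 1.43 CPM), and USP16 had the lowest, -0.62. In the other deubiquitinase classes 35 of 37 genes were tested and edgeR called 0, with a median log2 fold change of -0.07.

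The genes next to the chromosome 4 array were read beside the family. Within 1 Mb of the array 12 of 64 genes were tested, and all 12 had a log2 fold change above 0, with a median of 0.81. In 7 of them (58.3%) both knockout libraries were above both wild type libraries, on plain and on TMM-scaled library sizes. Over all tested genes these shares were 20.4% and 17.9%. Of the 12 neighbours edgeR called 0 and DESeq2 called 1, where over all genes DESeq2 called 0.142% higher and 0.229% lower. Those outside the 7 overlapped, among them CPZ, at 4.21 and 6.07 against 16.4 and 4.99 CPM, and ACOX3, at 10.4 and 14.5 against 23.5 and 10.1 CPM. HMX1, a homeobox gene 339 kb away, stood at 1.62 and 4.43 CPM in the wild type and at 21 and 10.2 CPM in the knockout libraries, a log2 fold change of 2.35. HTRA3, a serine protease gene 904 kb away, had a log2 fold change of 1.77. CPZ, SLC2A9, SH3TC1, GPR78, TRMT44, ACOX3 and WDR1 ranged from 0.38 to 1.04. The median was 0.34 for the 37 genes at 1 to 5 Mb, 0.31 for the 99 genes at 5 to 20 Mb and 0.04 for the 462 genes beyond, in distance classes chosen after the data were seen. In the same order, both knockout libraries were above both wild type libraries in 29.7%, 30.3% and 17.5% of these genes.

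The neighbours deviated more in knockout 1 than in knockout 2. Among genes that averaged about 1 CPM or more, the median deviation from the wild type mean, relative to all genes, was 0.96 (log2) in knockout 1 and 0.36 in knockout 2 for the 11 genes within 1 Mb. For the 34 genes at 1 to 5 Mb it was 0.71 and -0.02, and for the 87 genes at 5 to 20 Mb it was 0.61 and 0.00. For the 411 genes beyond 20 Mb it was 0.15 and -0.07. The wild type libraries lay at -0.27 and 0.27 for the nearest genes, mirror images because their own mean was the reference. Knockout 2, at 0.36, was thus little above wild type 2 for these genes. The family itself was higher in knockout 2, at 9.41 CPM, than in knockout 1, at 5.99 CPM. With knockout 2 alone against the wild type libraries the family's ratio was 48.4. Whether the family's counts and the shift of its neighbours are related was not tested. The 31 tested genes within 1 Mb of a chromosome 8 copy had a median log2 fold change of -0.15. Of these, 4 were above and 5 below without overlap (4 and 6 with TMM). Over all tested genes the shares were 20.4% and 15.7% (17.9% and 18% with TMM). USP17L2 on that chromosome had 6.35 and 10.6 counts in the knockout libraries.

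**Figure D5:**
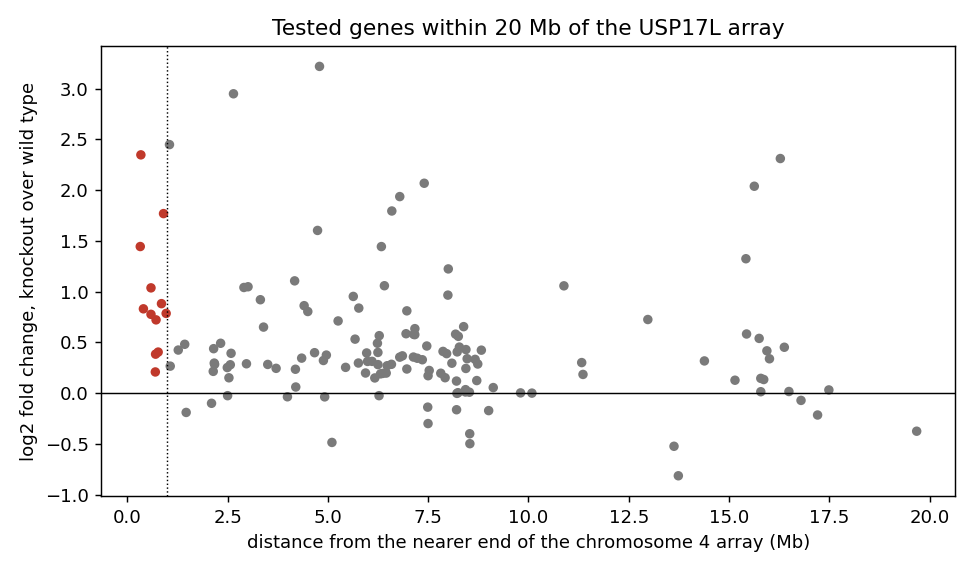
Log2 fold change of knockout over wild type (vertical axis) of each tested gene within 20 Mb of the chromosome 4 array against its distance from the nearer end of the array (horizontal axis, Mb); red points are the 12 genes within 1 Mb, left of the dotted line. All 12 lie above 0, with a median of 0.81, as do 32 of the 37 genes at 1 to 5 Mb and 84 of the 99 at 5 to 20 Mb.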

How the data were processed

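RNA from 2 wild type and 2 EED-knockout libraries was quantified by the submitters with kallisto 0.43.1 on hg38, per the submitters' processing notes. For the kallisto index, its word length and any use of strand, no source used here gives a setting. The deposited tables hold estimated counts, TPM and transcript lengths per transcript, per the file headers. TPM was deposited by the authors already scaled by effective length and library. Transcripts were summed to genes by identifier, joining pseudoautosomal copies. CPM divides a gene's estimated count by its library's total.

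Estimated counts were rounded to whole numbers and tested with edgeR 4.0.16 (R 4.3.3; TMM, quasi-likelihood F test, genotype alone, Benjamini-Hochberg adjustment at 0.05) on genes passing a minimum count of 10 and total of 15. DESeq2 1.42.0, limma 3.58.1 on log2(TPM + 1) and log2(TPM + 0.1), RLE size factors, no filter, the family as 1 summed gene, a replicate block and each library left out were alternatives. The family's level used plain library totals, with TMM-scaled totals, TPM and subsets of members as alternatives. Sequences and positions came from GENCODE 29 (GRCh38), in which all 43 family transcripts matched by identifier and length. Shared words were all runs of 31 bases, read on both strands. A window was printed only where no transcript outside the chromosome 4 array holds it. Deviations of neighbouring genes used log2(TMM-scaled CPM + 0.1), with genes averaging above 0 on that scale.

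Members and lists were chosen with earlier results of these data known. Named genes were every member with 3 or more counts in a library, EED, fixed substrates and signals, for each list the 2 tested genes of largest change, and tested protein-coding genes within 1 Mb of the chromosome 4 array; of these, the ones that carry a value not yet summarised are printed. Promoter and protein sequences were not used here. One gene named by that rule, and the list that holds it, are not reported here.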

Additional observations from a re-analysis of the deposited data

How the results depend on the processing

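The family's log2 ratio of mean levels (5.31) was 6.81 with protein-coding members alone and 4.52 to 7.20 with a library left out. Between 1 and 6 members were tested with a library left out, and 9 without the filter. Members called were 1 with DESeq2 and 0 to 1 with a library left out. Over all genes DESeq2 called 26 higher and 42 lower, and edgeR with a library left out called 0 to 15 higher and 0 to 10 lower. The 9 and 10 calls without wild type 2, and the 15 and 8 without knockout 1, each rest on 1 library in an arm, assumed to vary like the others. The cause of these changes was not tested. With the replicate block edgeR called 0 genes higher, 0 lower and 0 of 1 member tested. The labels do not say that numbers pair libraries, and same-numbered libraries' deviations had r = -0.141 across 18349 genes, which are not independent replicates. The family's log2 ratio stayed above 0 under every setting run. Of the recomputed values, 41 for the family and the counts over all genes were scored as kept and 14 as moved. For gene lists and single members 199 were kept and 19 moved. Numbers of genes tested or called were scored as kept within a set factor. Levels and fold changes were scored as kept where they moved less than the spread between replicate libraries, so a list median could change sign and be kept. By that wide rule the family's log2 ratio was kept at 4.03 with chromosome 8 members alone and at 4.14 without USP17L11. Medians near 0 changed sign in 3 lists, ranging over 11 settings from -0.29 to 0.24 for inducing signals, -0.04 to 0.18 for substrates and -0.01 to 0.10 for other USP-class genes. Median log2 fold changes of the genes beside the chromosome 4 array ranged from 0.41 to 1.44, and DESeq2 called 1 of these genes. The 1 and 6 wild type counts leave the family's ratio with a counting interval of 19.4 to 102.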
